A study of Mus musculus with 16 samples.

Results

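The regions described here are the stretches of the mouse heart genome where peaks of the transcription factors Meis1 and Hoxb13 overlapped. Peaks of the 4 Meis1 libraries that shared at least 1 bp were merged into 5069 Meis1 regions, and the 4 Hoxb13 libraries were merged the same way into 17634 Hoxb13 regions. A Meis1 region was kept when it overlapped, by at least 1 bp, a Hoxb13 region called in at least 2 Hoxb13 libraries. There were 422 such shared regions, 8.33% of all Meis1 regions, and they lay over 415 of the 4426 reproducible Hoxb13 regions, 9.38% of those. The members were chosen by these peak calls, so their number and their Meis1 and Hoxb13 levels are given as descriptions without a test, and the position in the genome, the sequence under the regions and the comparison between treatments carry the results.

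The data were chromatin immunoprecipitation and sequencing (ChIP-seq) peak lists from ventricles of mice at postnatal day 15, in 4 groups of 2 libraries each. Paro/Neo mice had received the aminoglycoside antibiotics paromomycin and neomycin together, injected intraperitoneally at 150 mg/kg, 2 times daily, over 7 days from postnatal day 7, and vehicle mice had received PBS. Each treatment was profiled with an antibody against Meis1/2 and with an antibody against Hoxb13, and the labels name no strain, sex or genetic change. The Meis1/2 antibody may also recover Meis2, the ventricles hold all cardiac cell types, and the labels speak of 2 hearts per sample without saying whether they were pooled, so p-values measure the spread between libraries only. The names of the second-replicate Meis1 lists carry the letter of the other treatment. The labels were followed, and the main comparisons between treatments are also given with these lists exchanged.

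Meis1 is a homeodomain factor of the TALE class, which binds DNA around a TGACAG core and often pairs with PBX and HOX proteins. Hoxb13 belongs to the posterior HOX group, whose members prefer TTTATTGG, the reverse complement of CCAATAAA. In the postnatal mouse heart both factors are known as regulators of the exit of cardiomyocytes from the cell cycle, and Meis1 is known to raise CDK inhibitor genes there.

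Promoter sequences of 6 genes under shared regions are shown because they hold the motifs that the results turn on. They were chosen after their values were seen. Each is the 300 bases from 250 before to 50 after the annotated gene start, read in the gene's direction, from RefSeq on assembly GRCm38.p6, whose coordinates are those of mm10. Capitals mark the MEIS core TGACAG or its reverse complement, and in Trib2 also the PBX-HOX motif TGATTNAT.
Lrrc10, chr10:117045091-117045390, plus strand: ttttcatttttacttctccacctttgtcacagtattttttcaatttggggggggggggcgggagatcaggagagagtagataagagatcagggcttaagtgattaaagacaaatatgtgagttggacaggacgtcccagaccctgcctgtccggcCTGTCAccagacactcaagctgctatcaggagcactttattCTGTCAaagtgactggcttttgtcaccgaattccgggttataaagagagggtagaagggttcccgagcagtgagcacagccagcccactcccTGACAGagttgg
Ska2, chr11:87109011-87109310, plus strand: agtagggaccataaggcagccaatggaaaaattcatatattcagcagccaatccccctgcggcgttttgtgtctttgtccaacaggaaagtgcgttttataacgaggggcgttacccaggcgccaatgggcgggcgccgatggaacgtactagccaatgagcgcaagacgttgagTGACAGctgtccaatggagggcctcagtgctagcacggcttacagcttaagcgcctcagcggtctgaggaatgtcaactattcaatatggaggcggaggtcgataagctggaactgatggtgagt
Ubl3, chr5:148552739-148553038, minus strand: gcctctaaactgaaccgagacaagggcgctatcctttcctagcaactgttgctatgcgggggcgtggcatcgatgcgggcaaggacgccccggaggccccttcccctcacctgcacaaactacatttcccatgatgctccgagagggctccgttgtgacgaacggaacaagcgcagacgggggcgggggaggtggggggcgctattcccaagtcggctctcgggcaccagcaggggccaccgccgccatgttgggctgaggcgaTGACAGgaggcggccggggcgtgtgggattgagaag
Trib2, chr12:15816736-15817035, minus strand: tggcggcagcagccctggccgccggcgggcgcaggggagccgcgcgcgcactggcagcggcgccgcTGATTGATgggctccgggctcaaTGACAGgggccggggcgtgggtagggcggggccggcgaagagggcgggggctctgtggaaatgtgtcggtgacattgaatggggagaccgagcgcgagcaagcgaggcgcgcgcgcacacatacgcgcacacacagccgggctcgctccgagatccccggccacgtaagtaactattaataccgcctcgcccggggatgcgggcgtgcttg
Hes6, chr1:91413989-91414288, minus strand: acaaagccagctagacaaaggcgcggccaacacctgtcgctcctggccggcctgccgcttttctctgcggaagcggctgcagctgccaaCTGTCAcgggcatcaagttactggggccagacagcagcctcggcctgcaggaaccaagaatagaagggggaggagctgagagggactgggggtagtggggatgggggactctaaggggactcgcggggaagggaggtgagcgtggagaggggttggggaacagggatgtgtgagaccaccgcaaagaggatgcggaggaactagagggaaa
Ttn, chr2:76982498-76982797, minus strand: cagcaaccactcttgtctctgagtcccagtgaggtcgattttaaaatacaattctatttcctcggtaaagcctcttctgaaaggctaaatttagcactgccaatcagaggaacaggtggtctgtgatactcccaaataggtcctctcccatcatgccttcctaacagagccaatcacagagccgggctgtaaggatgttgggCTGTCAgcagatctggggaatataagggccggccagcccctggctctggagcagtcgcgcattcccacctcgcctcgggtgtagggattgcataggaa

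Lrrc10, a gene of cardiac muscle whose protein sits at the sarcomere's Z-disc, held 3 MEIS cores, and all 3 lay inside the Meis1 region. Ska2, a spindle and kinetochore gene, held 1 core and 5 CCAAT boxes. Ubl3, a membrane-anchored ubiquitin-like protein, Hes6, a basic helix-loop-helix factor, and Ttn, the giant spring protein titin of the sarcomere, held 1 core each, inside the Meis1 region as well. Trib2, a pseudokinase gene, was 1 of 2 promoters under shared regions with a PBX-HOX match, and the match stood upstream of its MEIS core.

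Shared regions lay at gene starts, where other Meis1 regions rarely lay. Of 408 shared regions outside chromosome 18, for which no starts were at hand, 219 (53.7%) lay within 1 kb of the start of a protein-coding gene, against 239 of 4475 other Meis1 regions (5.34%). The background over all Meis1 regions was 9.38%. Starts were at hand for 17492 of 21887 protein-coding genes, so regions at the starts of the others were not counted. The start itself lay inside 92 shared regions (22.5%) and inside 106 other Meis1 regions (2.37%). The median distance to the nearest start was 492.5 bp for shared regions and 56481 bp for other Meis1 regions. Within each library the difference held: the share at starts among shared regions was 41.2% and 42.6% in Paro/Neo libraries 1 and 2, and 52.2% and 54.8% in vehicle libraries 1 and 2. Other Meis1 regions lay at starts in 3.31% and 4.61% of cases in the Paro/Neo libraries and in 5.15% and 5.06% in the vehicle libraries. No library's value for the shared regions came near that for the others. The mean was 47.7 ± 6.81% for shared and 4.53 ± 0.850% for other Meis1 regions (SD, n = 4 libraries), a difference of 43.2 ± 6.14 points in the same direction in 4 of 4 libraries. The exact two-sided sign-flip permutation test gave p = 0.125, the smallest that 4 libraries allow, and the libraries share many regions, so they are not independent. The rule keeps regions on reproducible Hoxb13 regions, of which 63.2% lay at starts, so the test cannot set the overlap apart from where Hoxb13 lies. The difference fell to 17.1 points when a Hoxb13 call in 1 library sufficed to define a shared region, with 23.6% of the 1501 regions so defined at starts.

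**Figure D1:**
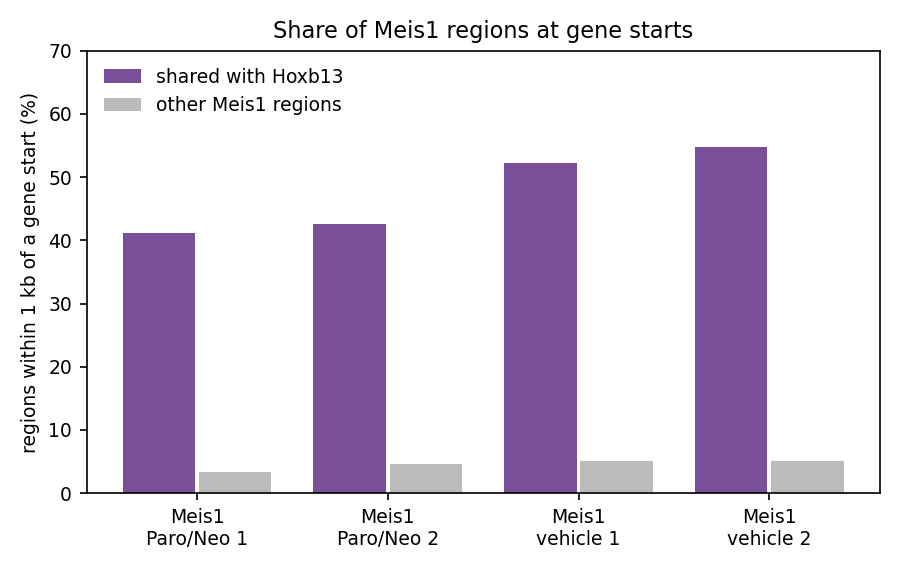
Share of Meis1 regions within 1 kb of a protein-coding gene start (y axis, %) in each of the 4 Meis1 libraries (x axis), for regions shared with Hoxb13 (purple) and other Meis1 regions (grey). Shared regions stand at 41.2% to 54.8% and the others at 3.31% to 5.15%.

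The share at starts of the shared regions stood near that of the reproducible Hoxb13 regions, which lay mostly at starts. Of the reproducible Hoxb13 regions without Meis1, 2475 of 3892 (63.6%) lay within 1 kb of a start, and of those with Meis1, 237 of 401 (59.1%). Seen from Meis1, 47.8% of its regions at starts were shared (219 of 458), against 4.27% of those farther away (189 of 4425) and 2.81% of those more than 50 kb away. Seen from Hoxb13, reproducible regions at starts held Meis1 in 8.74% of cases (237 of 2712) and those farther away in 10.4% (164 of 1581). The share of Meis1 regions that overlapped reproducible Hoxb13 regions was thus more than 10-fold higher at starts than at other places. The share of reproducible Hoxb13 regions that overlapped Meis1 was slightly lower at starts than at other places. Of the other shared regions, 97 (23.0%) lay in gene bodies, 38 (9.0%) within 5 kb of a gene and 68 (16.1%) between genes, against 47.9%, 5.62% and 41.4% of other Meis1 regions.

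**Figure D2:**
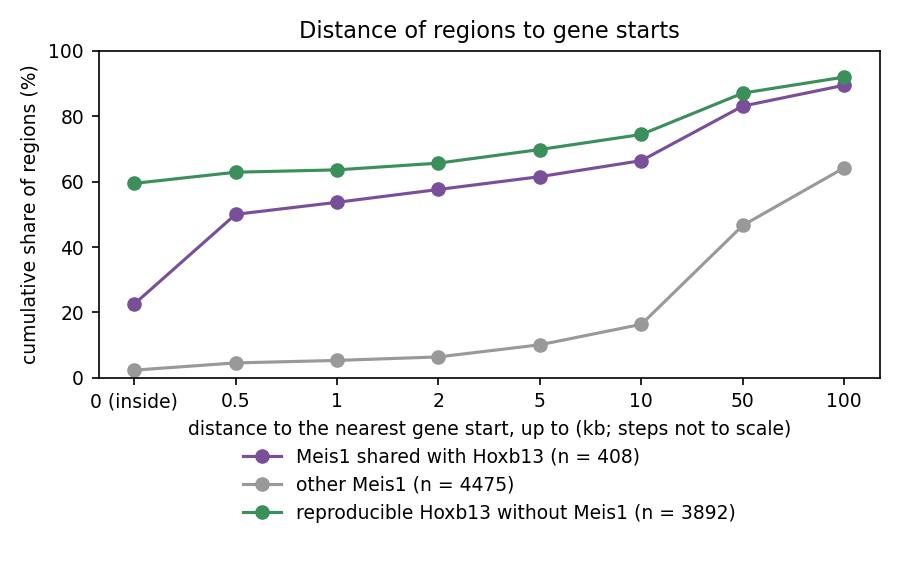
Cumulative share of regions (y axis, %) up to each distance from the nearest protein-coding gene start (x axis, kb, steps not to scale), for shared regions (purple), other Meis1 regions (grey) and reproducible Hoxb13 regions without Meis1 (green). At 1 kb the lines stand at 53.7%, 5.34% and 63.6%.

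At starts, most shared regions held the start or lay just upstream of it. The side of the start was not measured for other Meis1 regions. Of the 219, 92 (42.0%) held the start, 105 (47.9%) lay wholly upstream and 22 (10.0%) wholly downstream, and the median centre stood at -143.5 bp relative to the start, where negative values are upstream. The regions were narrow, with a median width of 304.5 bp (179 to 5805 bp) against 277 bp for other Meis1 regions, while the Hoxb13 regions under them had a median of 940 bp. Of the 422, 274 (64.9%) lay wholly inside the Hoxb13 region, and 394 had at least 50% of their length covered by it. The smallest overlaps that were kept measured 15 bp at Kif1b, 15 bp at Adnp2 and 23 bp at Zfp866, and the nearest misses lay 7 bp from a Hoxb13 region at Adrb1, 18 bp at Otud4 and 47 bp at Sqstm1. Of the 4647 other Meis1 regions, 1079 overlapped a Hoxb13 region called once, and 3568 (76.8%) overlapped none. Of the 1073 Hoxb13 regions called once under them, 1062 came from Hoxb13 Paro/Neo library 2, whose list was by far the longest.

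The MEIS core stood under Meis1 regions whether or not they overlapped a reproducible Hoxb13 region. The other Meis1 regions are not free of Hoxb13, since 1079 of 4647 overlapped a Hoxb13 region called in 1 library. Windows without any Hoxb13 peak were not measured apart. Of the 191 promoter windows touched by a shared region, 89 (46.6%) held TGACAG on either strand, against 109 of 198 windows under other Meis1 regions (55.1%), 435 of 3113 windows under Hoxb13 without Meis1 (14.0%) and 3963 of all 21238 windows (18.7%). In windows under shared regions called in 3 or 4 Meis1 libraries, the share was 56.0% (28 of 50). Within the windows, the core was concentrated in the part that the peak covered: it occurred 94 times in 35928 bp inside shared regions, 2.62 per kb, and 14 times in 21372 bp outside them, 0.655 per kb. The density over all promoters was 0.700 per kb. Other Meis1 regions gave 3.14 per kb inside and 0.746 per kb outside, and Hoxb13 regions without Meis1 gave 0.503 and 0.560 per kb. The remaining 102 windows under shared regions held no TGACAG, among them those of Tnnt2, Mef2a and Cdkn1b, which says only that these letters are not in the window.

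**Figure D3:**
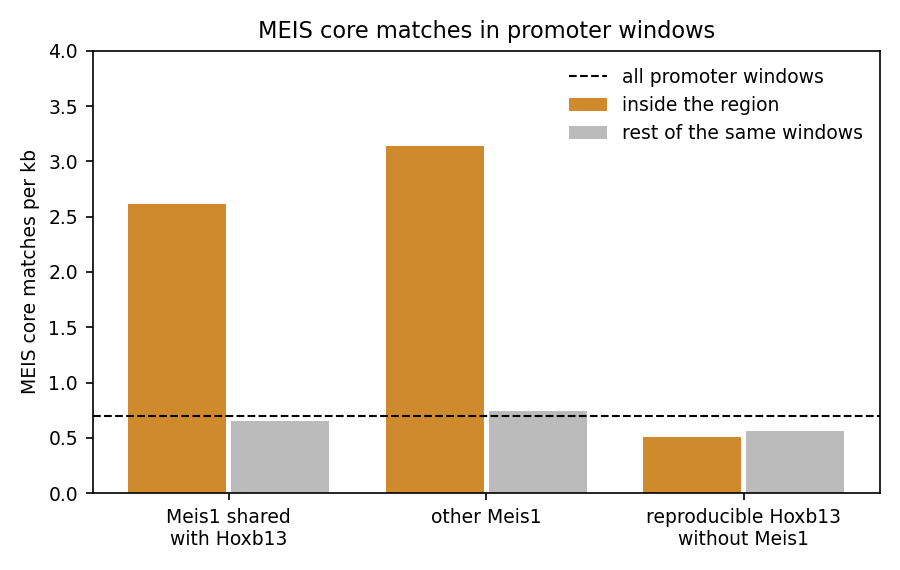
Matches to the MEIS core TGACAG per kb of promoter window (y axis), inside the region (orange) and in the rest of the same windows (grey), for the 3 kinds of region (x axis). The dashed line marks all promoter windows at 0.700 per kb, and the orange bars stand at 2.62, 3.14 and 0.503 per kb.

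HOX-type motifs were rare in these windows. The HOXB13 motif CCAATAAA occurred on either strand in 4 of the 191 windows (2.09%), against 0.505% under other Meis1 regions, 1.19% under Hoxb13 without Meis1 and 0.909% of all windows. The PBX-HOX motif TGATTNAT occurred in 2 windows (1.05%), against 0.505%, 0.899% and 2.75%. General promoter elements were common. The CCAAT box (CCAAT, which the HOXB13 motif also contains) was found in 67.0% of windows under shared regions, against 48.5% under other Meis1 regions, 42.3% under Hoxb13 without Meis1 and 38.2% of all windows. The GC box (GGGCGG) was found in 79.6%, against 56.1%, 78.5% and 46.2%, and the E-box CACGTG in 17.3%, against 8.08%, 10.5% and 7.84%. Base composition moved with these counts: the median GC content was 62.0% under shared regions, 57.7% under other Meis1 regions, 65.7% under Hoxb13 without Meis1 and 56.3% of all windows, and its part in the counts was not tested.

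Support by calls was uneven. Shared regions called in 1, 2, 3 and 4 Meis1 libraries numbered 197, 100, 69 and 56. Of the 190, 96, 68 and 54 outside chromosome 18, 61.1%, 51.0%, 42.6% and 46.3% lay at starts. Among other Meis1 regions the shares were 6.14%, 5.05%, 4.36% and 3.21%, also lower with more calls. Over all Meis1 regions 53.9% were called in 1 library and 12.0% in all 4. On the Hoxb13 side, 255 were called in 2 libraries, 72 in 3 and 95 in all 4, and 248 (58.8%) rested on Paro/Neo library 2 and vehicle library 1 alone. Hoxb13 regions called in 2, 3 and 4 libraries held Meis1 in 7.65%, 10.6% and 20.3% of cases. Calls went with width: under Hoxb13 regions of 3 kb or more, 59.3% of shared regions had all 4 Hoxb13 calls, against 16.5% under narrower ones. The part of width in the rise was not tested. Without Hoxb13 Paro/Neo library 2 the shared regions numbered 137, and without Hoxb13 vehicle library 1 they numbered 174.

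A total of 18 shared regions were called in all 8 libraries, and 10 of the 17 outside chromosome 18 lay at starts. The fold of a peak is the authors' enrichment of the peak over its background, and it ranks peaks only within one list, so levels are compared by the percentile within the list. Lists of different lengths give different ranks to the same peak, so percentiles are not read as a change between treatments. Of the 18, 3 had a mean percentile of 5 or less with both antibodies, near Esp38, near Alkbh8 and in Cdk8, and the other 15 are described first. A call belongs to the merged region, so in a wide Hoxb13 region the peak of a given library can lie beside the Meis1 region and not over it. Mb, Lrrc10 and Hspb7 are genes of heart muscle. At Mb, which encodes the oxygen store myoglobin, the region 8.16 kb from the start (chr15:77013850-77014571) had Meis1 folds of 6.74 and 5.93 in Paro/Neo libraries 1 and 2, and 7.01 and 7.40 in vehicle libraries 1 and 2. Its Hoxb13 folds were 5.52 and 5.31 in Paro/Neo libraries and 6.25 and 3.95 in vehicle libraries. The percentiles ran from 72.2 to 99.0, high in all 8 lists.

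At Lrrc10 (chr10:117045116-117045433, over the start, sequence above) the Meis1 folds were 4.79 and 6.24 in Paro/Neo libraries and 8.52 and 8.69 in vehicle libraries. Those are percentiles of 46.4 and 77.4, and of 93.4 and 93.6, so it ranked in the middle or the upper part of every Meis1 list. At Hspb7, a small heat shock protein of heart muscle, the region lay 0.653 kb from the start, and its Meis1 percentiles were 57.2 and 40 in Paro/Neo libraries and 93.1 and 85.3 in vehicle libraries. Their Hoxb13 regions were wide, 9.22 kb at Lrrc10 and 8.99 kb at Hspb7. Without Hoxb13 Paro/Neo library 2 the regions at Lrrc10, Hspb7, Mib1 and Irf2bp2 no longer met the rule, and of all 41 named regions 21 did not.

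The region near Dusp1, a phosphatase that switches off MAP kinases, lay 4.29 kb from the start and spanned 1221 bp. Its Meis1 folds were 5.79 and 7.50 in Paro/Neo libraries and 8.74 and 8.36 in vehicle libraries, with percentiles of 73.2 and 89.2 against 94.1 and 92.6. Mib1, a ubiquitin ligase for Notch ligands, held a region with percentiles of 73.7 and 38.9 in Paro/Neo and 83.4 and 93.6 in vehicle Meis1 libraries. Ephb4, a receptor tyrosine kinase of the venous endothelium, had the highest Hoxb13 level of the group, with folds of 12.4 and 6.03 in Paro/Neo and 7.65 and 7.80 in vehicle libraries, all at percentiles of 99.1 or more. The remaining named regions called in all 8 libraries lay at Myadm, a membrane protein, Ska2, Ssbp2, a partner of LIM-domain binding proteins, Hip1, an endocytic adaptor, Plekhf1, an endosomal protein, Irf2bp2, a corepressor, Evi5l and Tbc1d10b, activators of Rab GTPase hydrolysis, and LOC108167694. Their mean percentiles over the 8 lists ran from 38.2 to 72.1.

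The shared regions with the highest Meis1 ranks lay mostly more than 1 kb from the starts at hand. These starts cover 17492 of 21887 protein-coding genes, so a start of another gene may lie closer. Among those called in all 4 Meis1 libraries, the leading 10 by mean Meis1 percentile (89.6 to 99.9) included 2 at starts, those of Aph1b, a gamma-secretase subunit, and Ubl3. The highest lay within Gse1, a chromatin-associated protein, at chr8:120289738-120290215, with folds of 19.2 and 19.5 in Paro/Neo libraries and 15.6 and 21.5 in vehicle libraries. The next lay 84.8 kb from the start of Lclat1, a cardiolipin-remodelling acyltransferase, with 13.8 and 19.5 in Paro/Neo and 16.9 and 18.8 in vehicle libraries. A region 26.5 kb from the start of Ryr2, the calcium release channel of the sarcoplasmic reticulum, had 13.3 and 7.82 in Paro/Neo and 12.9 and 15.1 in vehicle libraries. The others lay at or near Tspan5, Plekhm2, Phldb1, Abcc8 (a sulfonylurea receptor that pairs with potassium channels) and Slc1a7. Of the 10, 8 had Hoxb13 in Paro/Neo library 2 and vehicle library 1 alone, at percentiles from 3.06 to 88.3.

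**Figure D4:**
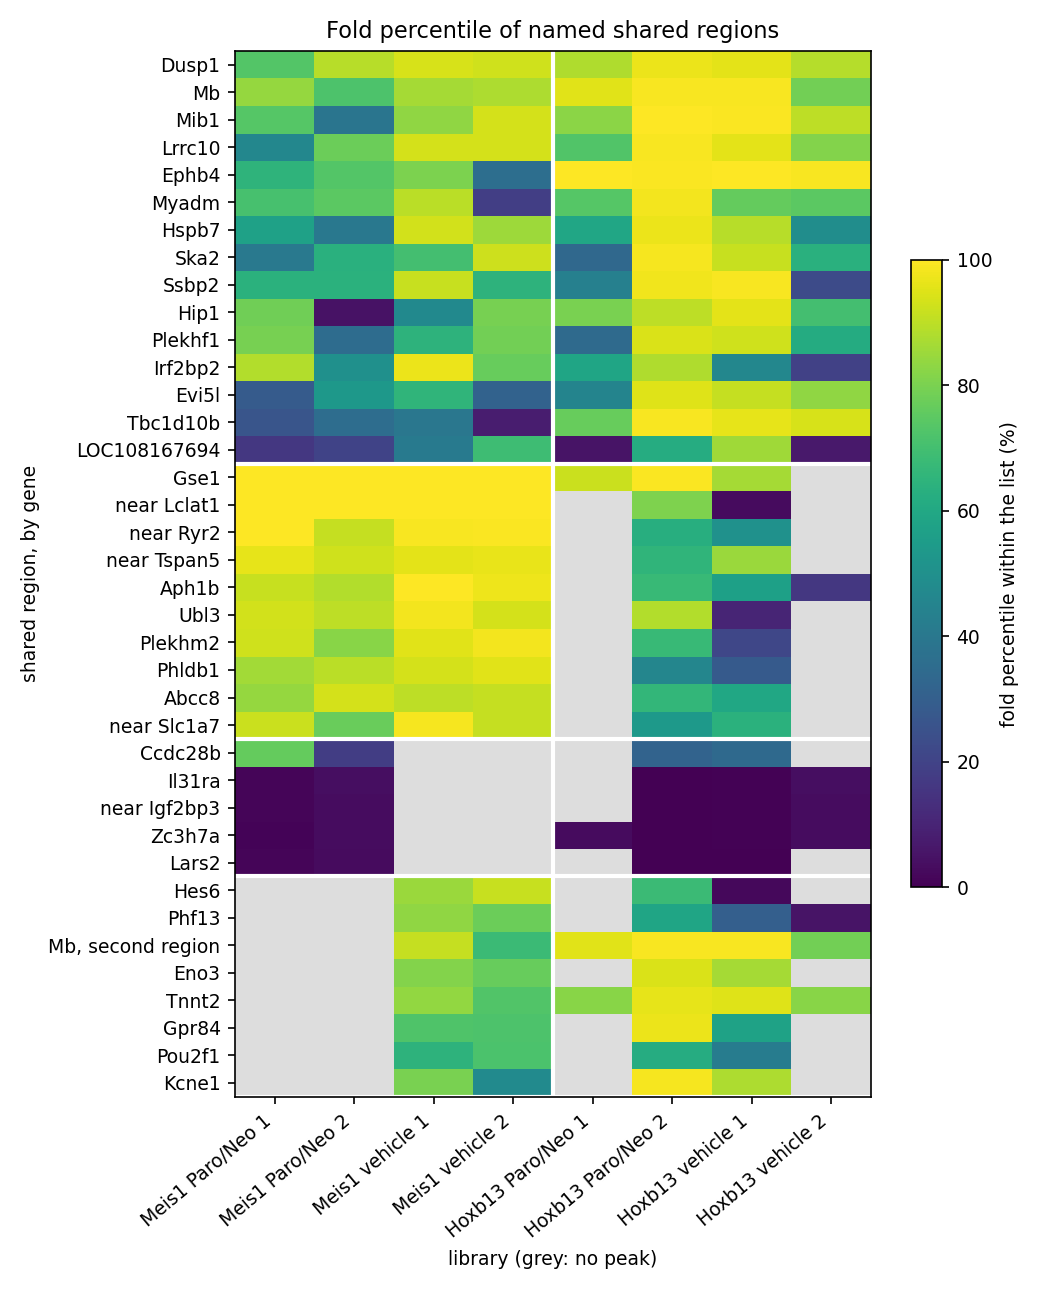
Fold percentile (colour, % of the peaks in the same list with an equal or lower fold) of named shared regions (rows) in the 8 libraries (columns), with grey where no peak was called. White lines separate, from the top, 15 of the 18 regions called in all 8 libraries, those with the highest Meis1 percentiles, Paro/Neo-specific and vehicle-specific regions. The top block is filled throughout, and the Paro/Neo-specific rows other than Ccdc28b stand at percentiles below 4.

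Over all members the Meis1 level was slightly below that of other Meis1 regions. The median Meis1 fold percentile of shared regions was 46.0 and 38.3 in Paro/Neo libraries and 47.2 and 46.0 in vehicle libraries, against medians from 50.4 to 51.5 for the others. In Hoxb13 the shared regions had median percentiles of 45.3 and 80.1 in Paro/Neo libraries and 59.4 and 48.9 in vehicle libraries. These levels are descriptions, since the calls chose the regions.

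Genes of the contractile apparatus held shared regions at 8 of 26 members, counting regions within 5 kb of the gene, where the background over all protein-coding genes was 2.16% (473 of 21887). Any Meis1 region lay at 13 of the 26 and a reproducible Hoxb13 region at 19 (73.1%), against 11.8% and 22.9% of all protein-coding genes. Genes differ in length and long genes collect more regions, so these counts are not a test. Actn2, an actin crosslinker of the Z-disc, held a region 2.59 kb from its start with Meis1 folds of 4.32 in Paro/Neo library 1 and 8.19 and 5.27 in vehicle libraries, and none in Paro/Neo library 2. Tnnt2, cardiac troponin T, held 3 shared regions: one over its start (4.22 in Paro/Neo library 2, 4.78 and 4.81 in vehicle), one 6.97 kb away (4.67 in Paro/Neo library 1, 5.16 and 6.65 in vehicle) and one 11.1 kb away called in both vehicle libraries alone (6.64 and 5.73). Ttn held 4 shared regions, and the one over its start (chr2:76981730-76982862, sequence above) was called in both vehicle libraries alone, with folds of 4.94 and 3.76. Myh6 and Myh7, the adult and fetal cardiac myosin heavy chains, are neighbours and share a region called in both vehicle libraries alone, 117 bp from the Myh6 start, with folds of 5.06 and 4.64. Ldb3, a Z-disc protein, had 5.53 in Paro/Neo library 1 and 6.27 and 8.13 in vehicle libraries. Myl2, a ventricular myosin light chain, and Lmod2, an actin filament nucleator, had 1 region each, called in vehicle library 1 alone. With Meis1 lists of equal length, 3 of the 26 genes held a shared region.

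Shared regions at several sarcomere genes lay under wide Hoxb13 regions. Of the 422 shared regions, 59 (14.0%) lay under a Hoxb13 region of 3 kb or more, and 15 of the 56 outside chromosome 18 (26.8%) were at starts, against 204 of 352 (58.0%) under narrower ones. Of these wide Hoxb13 regions 15 measured 10 kb or more. At genes of heart muscle they measured 71.2 kb at Fhl2, a LIM protein of heart muscle, 40.8 kb at Myh6, 31.7 kb at Ttn, 30.5 kb at Myh7, 21.3 kb at Tnnt2, 16.1 kb at Lmod2, 13.6 kb at Myl2, 13.4 kb at Pln, 11.8 kb at Ldb3 and 10.4 kb at Mb. The other 5 measured 23.0 kb near Frmd8, 21.1 kb near Gata5, 19.6 kb at Dapk3 and Nmrk2, 11.3 kb near Ltbp3 and 10.6 kb at Mib1. Reproducible Hoxb13 regions of 3 kb or more held Meis1 in 54 of 287 cases (18.8%) and narrower ones in 361 of 4139 (8.72%). A wide region offers more length for an overlap, and its part in that difference was not tested. The Meis1 regions under the wide Hoxb13 regions had a median width of 313 bp (179 to 5805 bp), against 304 bp under narrower ones. They were called in 1 Meis1 library in 28 of 59 cases (47.5%), against 169 of 363 (46.6%) under narrower ones and 53.9% of all Meis1 regions.

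Genes of calcium handling and of potassium channels held shared regions at 3 and 4 members. The background for shared regions was 2.16% of all protein-coding genes. Of 23 calcium handling genes, 3 held one: Ryr2 in the gene body (6.12 in Paro/Neo library 2, 6.89 and 5.20 in vehicle libraries), Pln, the inhibitor of the calcium pump, in vehicle library 1, and Jph2, which ties the plasma membrane to the sarcoplasmic reticulum, in vehicle library 2. Any Meis1 region lay at 13 of the 23 (56.5%) and a reproducible Hoxb13 region also at 13, against 11.8% and 22.9% of all protein-coding genes. Both lay somewhere at 9 genes (39.1%), against 1056 of all 21887 (4.82%). Of 15 potassium channel genes, 4 held a shared region. At Kcnj5, a subunit of the acetylcholine-gated channel, the folds were 6.58 and 6.46 in Paro/Neo and 6.89 and 8.33 in vehicle libraries. Kcnj11 was called in Paro/Neo library 1 (4.91) and in both vehicle libraries (5.43 and 7.66), and Kcnh2, the rapid delayed rectifier, in vehicle library 1 alone (7.16). Kcne1, a subunit of the slow delayed rectifier, was called in both vehicle libraries alone.

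Metabolic genes gave single examples. Of 32 oxidative phosphorylation genes 22 (68.8%) held reproducible Hoxb13, where the background was 22.9%. Any Meis1 region lay at 5 of them (15.6%), near the background of 11.8%, and a shared region at 3. The background for shared regions was 2.16% of all protein-coding genes. Cox7a1, the muscle form of a cytochrome c oxidase subunit, was called in all 4 Meis1 libraries, with folds of 4.52 and 4.95 in Paro/Neo and 4.37 and 5.36 in vehicle libraries, over its start. Sdhb and Ndufa10 were called in 1 vehicle library each. Of 24 glycolysis genes 3 held shared regions: Eno3, the muscle enolase, in both vehicle libraries alone, and Gapdh and Pgam2 in vehicle library 1 alone. Of 22 genes of fatty acid use 2 held them, Ppara, a nuclear receptor that drives fatty acid oxidation, in both vehicle libraries alone (4.32 and 4.13), and Ppargc1b, a coactivator of mitochondrial genes, in vehicle library 1.

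Among regulators, 2 of 21 cardiac transcription factor genes held a shared region, where the background was 2.16% of all protein-coding genes. Mef2a, a MADS-box factor of muscle, was called in all 4 Meis1 libraries at its start (4.49 and 3.99 in Paro/Neo, 6.20 and 5.60 in vehicle), and Srf, which drives contractile genes, in Paro/Neo library 1 and vehicle library 2. Of 11 TALE homeobox genes, Pknox1, a relative of Meis1, was called in all 4 (4.91 and 5.69 in Paro/Neo, 8.14 and 7.00 in vehicle), and Pbx3 in vehicle library 1. Of 10 CDK inhibitor and pocket protein genes, Cdkn1b, which encodes the inhibitor p27, held one over its start (chr6:134920301-134920542), with folds of 4.89 in Paro/Neo library 1 and 4.84 and 5.65 in vehicle libraries. Meis1, Meis2, Hoxb13, Cdkn1a, Cdkn2a, Cdkn2b, Rcan1, a calcineurin regulator, and Ppp3ca, its catalytic subunit, held 0 shared regions. So did the 33 cell cycle drivers, the 10 calcineurin and NFAT genes and the 31 ribosomal protein genes. With the background of 2.16%, 0 in lists this short is near it. Any Meis1 region lay at 1 of the 33, 3 of the 10 and 1 of the 31, against 11.8% of all protein-coding genes. Of the 31 ribosomal protein genes, 19 (61.3%) held reproducible Hoxb13, against 22.9% of all protein-coding genes.

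The remaining lists gave 1 to 3 genes or none. They were Jup (plakoglobin, a desmosome protein) of 14 intercalated disc genes, Nf2 (merlin, an upstream activator of the pathway) of 18 Hippo genes, Irs1 (an insulin receptor substrate) of 18 growth factor signalling genes, Atf3 and Dusp1 of 20 immediate-early and stress genes, and Myh7, Fhl2 and Nmrk2 of 11 fetal and load-responsive genes. Nf2, Irs1, Atf3, Fhl2 and Nmrk2 were each called in 1 vehicle Meis1 library alone, Atf3 and Fhl2 at Meis1 percentiles of 3.83 and 1.70. As markers of other cells, 19 endothelial, 17 fibroblast, 10 smooth muscle and 16 macrophage genes held 0 shared regions. The background over all protein-coding genes was 2.16%, so 0 in lists this short does not set these cells apart. Epor stood for 8 erythroid genes and Syp for 30 genes of other tissues, each called in Meis1 vehicle library 2 alone. The Epor region lay over the start of Swsap1. A reproducible Hoxb13 region lay at 12 of the 19 endothelial genes (63.2%), against a background of 22.9%, and a Meis1 region at 2 (10.5%), near its background of 11.8%. Over all lists, 37 of 431 genes (8.58%) held a shared region, against 2.16% of all protein-coding genes.

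Fewer shared regions were called after Paro/Neo, and fewer Meis1 regions altogether. Meis1 was called at 124 and 125 shared regions in Paro/Neo libraries 1 and 2, and at 299 and 280 in vehicle libraries 1 and 2. The groups did not overlap. The means were 124.5 ± 0.707 and 289.5 ± 13.4 (SD, n = 2 each), 2.32-fold fewer after Paro/Neo (log2 difference -1.22, exact two-sided permutation p = 0.333, the smallest that 2 against 2 libraries allow). The lists were of unequal length, with 1541 and 1025 Meis1 regions in Paro/Neo and 3528 and 3174 in vehicle libraries, 2.66-fold fewer (log2 difference -1.41, same test and p). When each list kept only its 1025 strongest peaks, the difference turned round, to 0.42 on the log2 scale (exact permutation p = 0.333). With the second replicates exchanged, as the names of the deposited lists would have it, the log2 difference was -0.05 (exact permutation p = 0.667), and the difference over all Meis1 regions was 0.22. Depth is unknown, so list length and treatment cannot be told apart.

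As a share of each library's list, the shared regions did not follow treatment. They made up 8.05% and 12.2% of the regions in Paro/Neo libraries and 8.48% and 8.82% in vehicle libraries, so vehicle lay between the Paro/Neo values. The means were 10.1 ± 2.93% and 8.65 ± 0.245% (SD, n = 2 each), a difference of 1.47 points (exact permutation p = 1), and -0.60 points without Paro/Neo library 2. In that library, the lowest of 4 equal classes of fold held 19.1% shared regions and the other classes 8.98% to 10.9%.

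**Figure D5:**
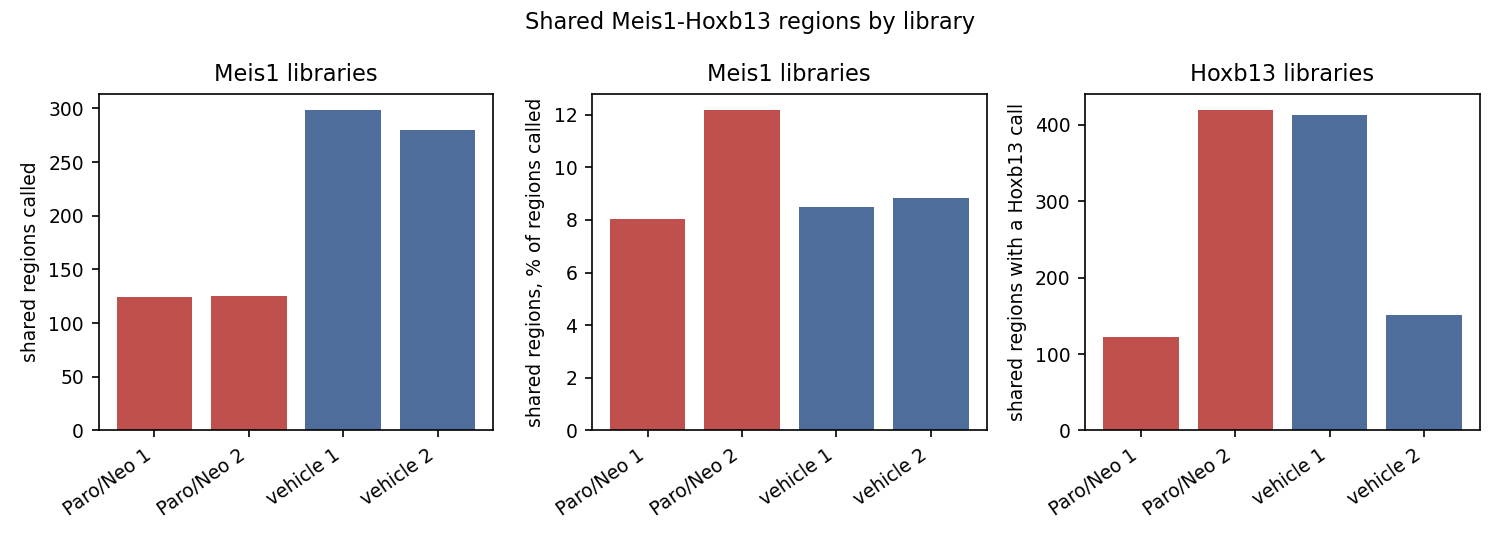
Left, shared regions with a Meis1 call in each Meis1 library (count). Middle, the same as a percentage of the library's regions. Right, shared regions with a Hoxb13 call in each Hoxb13 library (count). Paro/Neo bars (red) are at 124 and 125 and vehicle bars (blue) at 299 and 280 on the left, and the groups interleave in the other panels.

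The treatment pattern of single regions was close to that of all Meis1 regions, apart from a few Paro/Neo calls. Of the 422, 6 (1.42%) were called in both Paro/Neo libraries and in neither vehicle library (Paro/Neo-specific), against 0.296% of all Meis1 regions. The reverse (vehicle-specific) held for 70 (16.6%), against 15.9%. Of the 188 shared regions called in both vehicle libraries, Paro/Neo libraries gave 2 calls at 56 (29.8%), 1 call at 62 and 0 calls at 70 (37.2%). The share with 0 Paro/Neo calls was 39.7% over all Meis1 regions called in both vehicle libraries. Of the 1845 that were not shared, 554 (30.0%) were called in both Paro/Neo libraries and 737 (39.9%) in none. With equal list lengths, 2 shared regions were Paro/Neo-specific and 8 vehicle-specific. With the second replicates exchanged, 8 were vehicle-specific. Leaving out a library also moved the counts: without Meis1 Paro/Neo library 1 they were 21 Paro/Neo-specific and 106 vehicle-specific, and 56.4% of the regions called in both vehicle libraries had no Paro/Neo call. Paro/Neo-specific regions numbered 16 without Meis1 Paro/Neo library 2 and 11 without vehicle library 2. Vehicle-specific regions numbered 145 without vehicle library 1, 166 without vehicle library 2, 16 without Hoxb13 Paro/Neo library 2 and 24 without Hoxb13 vehicle library 1.

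Among shared regions, the treatment difference was larger in size at starts than away from them. With 2 against 2 libraries its exact permutation p cannot fall below 0.333. Shared regions at starts numbered 49 and 52 in Paro/Neo and 151 and 149 in vehicle libraries, 2.97-fold fewer (log2 difference -1.57). Those away from starts numbered 70 and 70 in Paro/Neo and 138 and 123 in vehicle libraries, 1.86-fold fewer (-0.90). Each had an exact permutation p of 0.333, and with the second replicates exchanged the log2 differences were -0.05 and -0.08. The share at starts averaged 41.9 ± 1.02% in Paro/Neo and 53.5 ± 1.79% in vehicle libraries (SD, n = 2 each), a difference of -11.6 points (exact permutation p = 0.333). It was 5.28 points with equal list lengths, 0.54 points with the second replicates exchanged and -3.09 points without the lowest 5% of folds in each list. Other Meis1 regions showed 3.96 ± 0.923% in Paro/Neo and 5.11 ± 0.0675% in vehicle libraries, a difference of -1.15 points with the same p. Their share at starts was low in both groups, so the differences in points start from unlike levels and are not compared. In number, other Meis1 regions at starts came to 45 and 40 in Paro/Neo and 160 and 141 in vehicle libraries. Fewer calls at starts after Paro/Neo were thus not particular to shared regions.

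Shared regions specific to Paro/Neo ranked low with 1 exception. At Ccdc28b, a gene for a coiled-coil protein, the folds were 6.0 and 4.07 in Paro/Neo libraries, percentiles of 76.5 and 18.2. Il31ra, a cytokine receptor subunit, Zc3h7a, a zinc finger protein, Lars2, the mitochondrial leucyl-tRNA synthetase, and the region 21.4 kb from the start of Igf2bp3, an RNA-binding protein, had mean Meis1 percentiles from 2.11 to 2.60. They belonged to 31 shared regions (7.35%) whose mean percentile was 5 or less with both antibodies. These 31 included 5 of the 6 Paro/Neo-specific and 0 of the 70 vehicle-specific shared regions, 0 lay at a start, and their folds ran from 1.32 to 3.36. Of these 31, Meis1 was called at 15 and 29 in Paro/Neo and at 10 and 15 in vehicle libraries. Among them, 3 were called in all 8 libraries, near Esp38, near Alkbh8 and in Cdk8, a kinase of the Mediator complex, with Meis1 folds from 1.55 to 2.14. The 3 widest shared regions also belonged to the 31, 5805 bp near Esp38, 3717 bp near Gm2244 and 2098 bp near Alkbh8 (chr9:3000191-3002288). These names give only the nearest start at hand, which lay 102, 130 and 333 kb away. On chromosome 9, 6 of the 31 lay between 3000191 and 3032628. Whether these regions hold repeated sequence was not tested.

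Among vehicle-specific shared regions, the one with the highest Meis1 percentile stood 12 bp from the start of Hes6 (chr1:91414050-91414401), with folds of 6.81 and 8.11 in vehicle libraries and no call in Paro/Neo libraries. Its Hoxb13 calls came from Paro/Neo library 2 and vehicle library 1, at percentiles of 68.3 and 2.06. Phf13, a reader of histone methylation, had 6.60 and 6.08, and Pou2f1, the octamer-binding factor Oct-1, had 5.25 and 5.65, both at their starts. A second region at Mb, 2.84 kb from the start, had 7.91 and 5.46, and the Eno3 region had 6.36 and 6.0. Kcne1 had 6.22 and 4.71, and Gpr84, a receptor for medium-chain fatty acids, had 5.65 and 5.67. Away from the leading ones, Foxo3, a forkhead factor of the insulin pathway, Tcf7l2, an effector of Wnt signalling, and Cenpu, a centromere protein, were vehicle-specific at their starts, at mean percentiles of 22.4, 52.7 and 37.2. These 3 were chosen after their values were seen.

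Hoxb13 calls at the shared regions followed the length of each list. They numbered 122 and 420 in Paro/Neo libraries and 413 and 151 in vehicle libraries, out of 726 and 16960 Hoxb13 regions in Paro/Neo and 4923 and 1017 in vehicle libraries. Each group held 1 long and 1 short list, and the groups overlapped throughout. The rule asks for 2 of these 4 calls, so the difference between treatments is given as a description without a test. The log2 difference was -0.14. It was 0.74 without Paro/Neo library 1, and 0.75 when Hoxb13 calls in 1 library sufficed to define a shared region.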

How the data were processed

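Peak lists of 8 immunoprecipitated libraries were used (2 per antibody and treatment), and the 8 input samples were not analysed here. Per the submitters' processing notes, MACS2, HOMER, Bowtie2, FastQC 0.11.5 and Picard 1.127 were run with build mm10, and the sources used here state neither their settings nor the control of the peak caller. Each deposited list is in broadPeak layout, 1 per library. The fold enrichment per peak is the deposited ratio. Of the deposited significance columns, −log10 q served as a filter in an alternative and −log10 p was not used, with a smallest −log10 q of 1.00. The deposited score equals 10 times −log10 q, rounded down, in 100% of peaks and was not used. Depth is unknown, so no detection limit can be given. Titles are written in 2 styles, one per antibody, so the antibody cannot be told apart from the sample set.

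Chromosomes 1 to 19, X and Y were merged at 1 bp with Python 3.11.15, numpy 2.4.6 and pandas 2.3.3. Genes came from RefSeq tables of GRCm38.p6 (21887 protein-coding genes). Starts were those of the promoter table, 21263 starts of 17492 genes and none on chromosome 18, so 14 shared regions have no start class. Gene lists counted regions within 5 kb of a gene, and 439 of 440 entries matched. Motifs were counted as exact letters on both strands. Groups were compared by exact two-sided permutation over libraries and positions by sign flips over libraries; the code was tested on simulated data. The members and lists were chosen with earlier results of these data known. Named were the regions called in all 8 libraries (15 at most), the 10 highest by Meis1 percentile, 5 Paro/Neo-specific and 8 vehicle-specific ones, list genes, 9 genes whatever their values, and the 3 widest. Tried were other call thresholds, 50% overlap, equal list lengths, exchanged replicates, a replicate block and each library left out.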

Additional observations from a re-analysis of the deposited data

How the results depend on the processing

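The position at starts kept its direction in all 18 alternatives, with a difference between shared and other Meis1 regions from 17.1 points (Hoxb13 called in at least 1 library) to 49.4 points (without the lowest 5% of folds), and from 41.0 to 45.3 points with 1 library left out. The number of shared regions depended on the calls: 167 with Hoxb13 in at least 3 libraries, 1501 with at least 1, 225 with Meis1 in at least 2, 257 with −log10 q of at least 2 and 184 with equal Meis1 list lengths. With 1 library left out it ran from 137 (without Hoxb13 Paro/Neo replicate 2) to 419. Paro/Neo-specific ones numbered 2 with equal lengths, 1 without the lowest 5% of folds (an alternative added after seeing the data, as was either gene end), and 4 to 21 with 1 library left out. Vehicle-specific ones numbered 23, 289 and 38 with at least 3 Hoxb13 libraries, at least 1 and the q threshold, 8 with equal lengths and 8 with the second Meis1 replicates exchanged, and 16 to 166 with 1 library left out. Genes of the lists with a shared region numbered 18, 72 and 19 with at least 3 Hoxb13 libraries, at least 1, and at least 2 Meis1 libraries.

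The log2 difference in shared regions per Meis1 library was 0.42 with equal list lengths and −0.05 with the replicates exchanged, and −1.26 to −0.83 with 1 library left out. The difference in percent of the list was −1.90 points with the replicates exchanged and −0.60 to 3.55 with 1 library left out. The share at starts, Paro/Neo minus vehicle, was 5.28 points with equal lengths and 0.54 with the replicates exchanged. For Hoxb13 the log2 difference was 0.75 with at least 1 library and −0.87 to 0.74 with 1 library left out. The cause of these changes was not tested. The labels give no shared animal or batch to a replicate number, and calls of same-numbered libraries, as deviations from their group means over the regions, correlated at −0.0028 for Meis1 and 0.20 for Hoxb13, so the libraries are taken to share only a number. With the replicate number as a block, the pairing left each difference as it was, −1.22 (exact permutation p = 0.5), 1.47 points (p = 1, exact) and, for Hoxb13 as a description, −0.14. Of 41 named regions, 21 were no longer shared without Hoxb13 Paro/Neo replicate 2, 15 without Hoxb13 vehicle replicate 1, 15 with at least 3 Hoxb13 libraries and 12 with the q threshold. Unknown depth limits every count.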
